A study of Mus musculus with 2 samples.

Results

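Osteopontin, the product of Spp1, is a secreted phosphoprotein that cells bind through an Arg-Gly-Asp motif. Its receptors include the hyaluronan receptor CD44 and integrins that pair the αv chain (Itgav) with the β1 (Itgb1) or β5 (Itgb5) chain. Bone matrix is its classical site, and in the brain it is known from microglia and macrophages during development and after injury, and from the meninges. The 5 genes described here, Spp1, Cd44, Itgav, Itgb1 and Itgb5, were taken by name from the 25595 genes of the deposited tables as the ligand and chains of its receptors. They were selected on what earlier results of these libraries showed, the Spp1 level of fibroblasts in each library among them, so every level and ratio below is a description and carries no test.

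The data were 2 single-cell RNA libraries of mouse cerebral cortex taken with its meninges and enriched by magnetic sorting for CD140a, the protein made from Pdgfra. N-PRα-KO mice carried Nestin-Cre with floxed Pdgfra alleles (Nestin-Cre;Pdgfra flox/flox), and WT mice were C57BL/6J. Nestin-Cre acts mainly in the neural lineage, and WT mice carried neither allele. Age, sex and number of animals are not given in the sources used here. Each genotype had 1 library, so an effect of genotype and one of the animals, the preparation, the run or the pipeline version cannot be told apart.

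Barcodes were used if they had 300 genes or more and a mitochondrial share of UMIs (unique molecule counts) no higher than 25%, which left 4186 N-PRα-KO cells with a median of 5781 UMIs and 9895 WT cells with a median of 3264 UMIs. The libraries shared 105 cell barcodes, carried by 51 of the N-PRα-KO cells and 81 of the WT cells used. Marker genes named 12 classes, 10 of them in both libraries, and each class is called "-like" because its name rests on RNA markers alone. Pdgfra had a UMI in 34.8% of all N-PRα-KO cells used and in 68.4% of the WT ones. In the oligodendrocyte lineage-like cells, where precursors express it, it stood at 1931 CPM in N-PRα-KO and 4668 CPM in WT cells, and counts per gene do not show whether the floxed part was present. Cell types that should lack it also carried it, with a UMI in 9.88% of microglia-like N-PRα-KO cells (25.3 CPM) and 24.6% of microglia-like WT cells (140.8 CPM). CPM are a gene's UMIs per 1000000 UMIs of the same class and library, and all intervals are exact 95% intervals that cover counting error only.

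The stretch of Spp1 that carries the integrin-binding motif is shown because 3 of the 5 genes encode chains of integrins that bind it. It lies in exon 5 of 6, at chr5:104439466-104439525 of GRCm38 on the plus strand, and the capitals mark the codons for Arg, Gly and Asp, of which the Arg codon is number 144 of 294.
Spp1: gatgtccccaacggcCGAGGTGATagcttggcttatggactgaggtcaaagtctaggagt
Spp1 spans positions 104435118 to 104441050 of chromosome 5 on the plus strand. Cd44 lies on chromosome 2 (102811141 to 102901665, minus strand), as does Itgav (83724397 to 83806916, plus strand). Itgb1 lies on chromosome 8 (128685654 to 128733200, plus strand) and Itgb5 on chromosome 16 (33829665 to 33949338, plus strand). The deposited values are 1 count per gene and cell, so neither splice forms nor the motif itself were measured.

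Spp1 was concentrated in different cells in each library. In the N-PRα-KO library fibroblast-like cells held 80.3% of its 2209 UMIs, whereas in the WT library arachnoid barrier-like cells held 60.65% of its 399 UMIs and fibroblast-like cells 20.05%. The fibroblast-like class comprised 951 N-PRα-KO cells and 505 WT cells, and all 10 fibroblast markers were detected in both, among them the collagen gene Col1a1 at 4913 CPM in N-PRα-KO and 9295 CPM in WT cells. Arachnoid barrier-like cells, named from markers of the tight layer that seals the subarachnoid space, comprised 60 N-PRα-KO and 120 WT cells. The tight-junction gene Cldn11 stood there at 1246 CPM in N-PRα-KO and 1303 CPM in WT cells, and 1 of the 8 markers, Krt18, was at 0 in WT cells.

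In fibroblast-like cells Spp1 stood at 270.3 CPM in the N-PRα-KO library (interval 258 to 283, 1774 UMIs) and 31.2 CPM in the WT library (24.7 to 38.8, 80 UMIs). The log2 ratio, here always N-PRα-KO to WT, was 3.12 (interval 2.79 to 3.46). The arachnoid barrier-like class ran the other way. There Spp1 stood at 99.7 CPM in N-PRα-KO cells (77.4 to 126, 68 UMIs) and 290.3 CPM in WT cells (255 to 329, 242 UMIs), which gave a log2 ratio of -1.54 (-1.95 to -1.15). Without cells of 5 or more Spp1 UMIs, 3 of them N-PRα-KO and 14 WT, the arachnoid barrier-like levels were 74.5 CPM in N-PRα-KO and 104.5 CPM in WT cells. The same step left 131 CPM in N-PRα-KO and 20.99 CPM in WT fibroblast-like cells. Arachnoid barrier-like cells also carried other classes' markers, with summed fibroblast markers at 11260 CPM in N-PRα-KO and 19160 CPM in WT cells, above their own list (3337 CPM in N-PRα-KO, 3024 CPM in WT). Choroid plexus markers summed to 1689 CPM in N-PRα-KO and 162 CPM in WT cells, and erythroid markers to 1276 CPM in N-PRα-KO cells and 0 in WT cells. The part of such RNA in the arachnoid barrier ratio was not tested.

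Of the 7313 genes that reached 20 CPM in either library of the fibroblast-like class, 16.1% were at least 2-fold higher in N-PRα-KO cells and 8.41% at least 2-fold lower. Of the 5 genes, 4 reached this level, namely Spp1, Itgav, Itgb1 and Itgb5. Spp1 and Itgb5 were past 2-fold higher, and none was past 2-fold lower. Since the genes were chosen with this contrast known, nothing is read from that count. Ratios also rose with the GC content of the last 500 transcript bases across genes (Spearman rho 0.54 over 7290 genes in fibroblast-like cells, 0.47 to 0.65 over the 10 shared classes). The last 500 bases hold 32.6% GC in Spp1, 36% in Cd44, 32.4% in Itgav, 39.2% in Itgb1 and 50.8% in Itgb5. The trend-removed values of the 5 genes are plotted by class beside the ratios, and some are given in the text. For Spp1 it was 3.47 in fibroblast-like cells and -1.14 in arachnoid barrier-like cells.

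**Figure D1:**
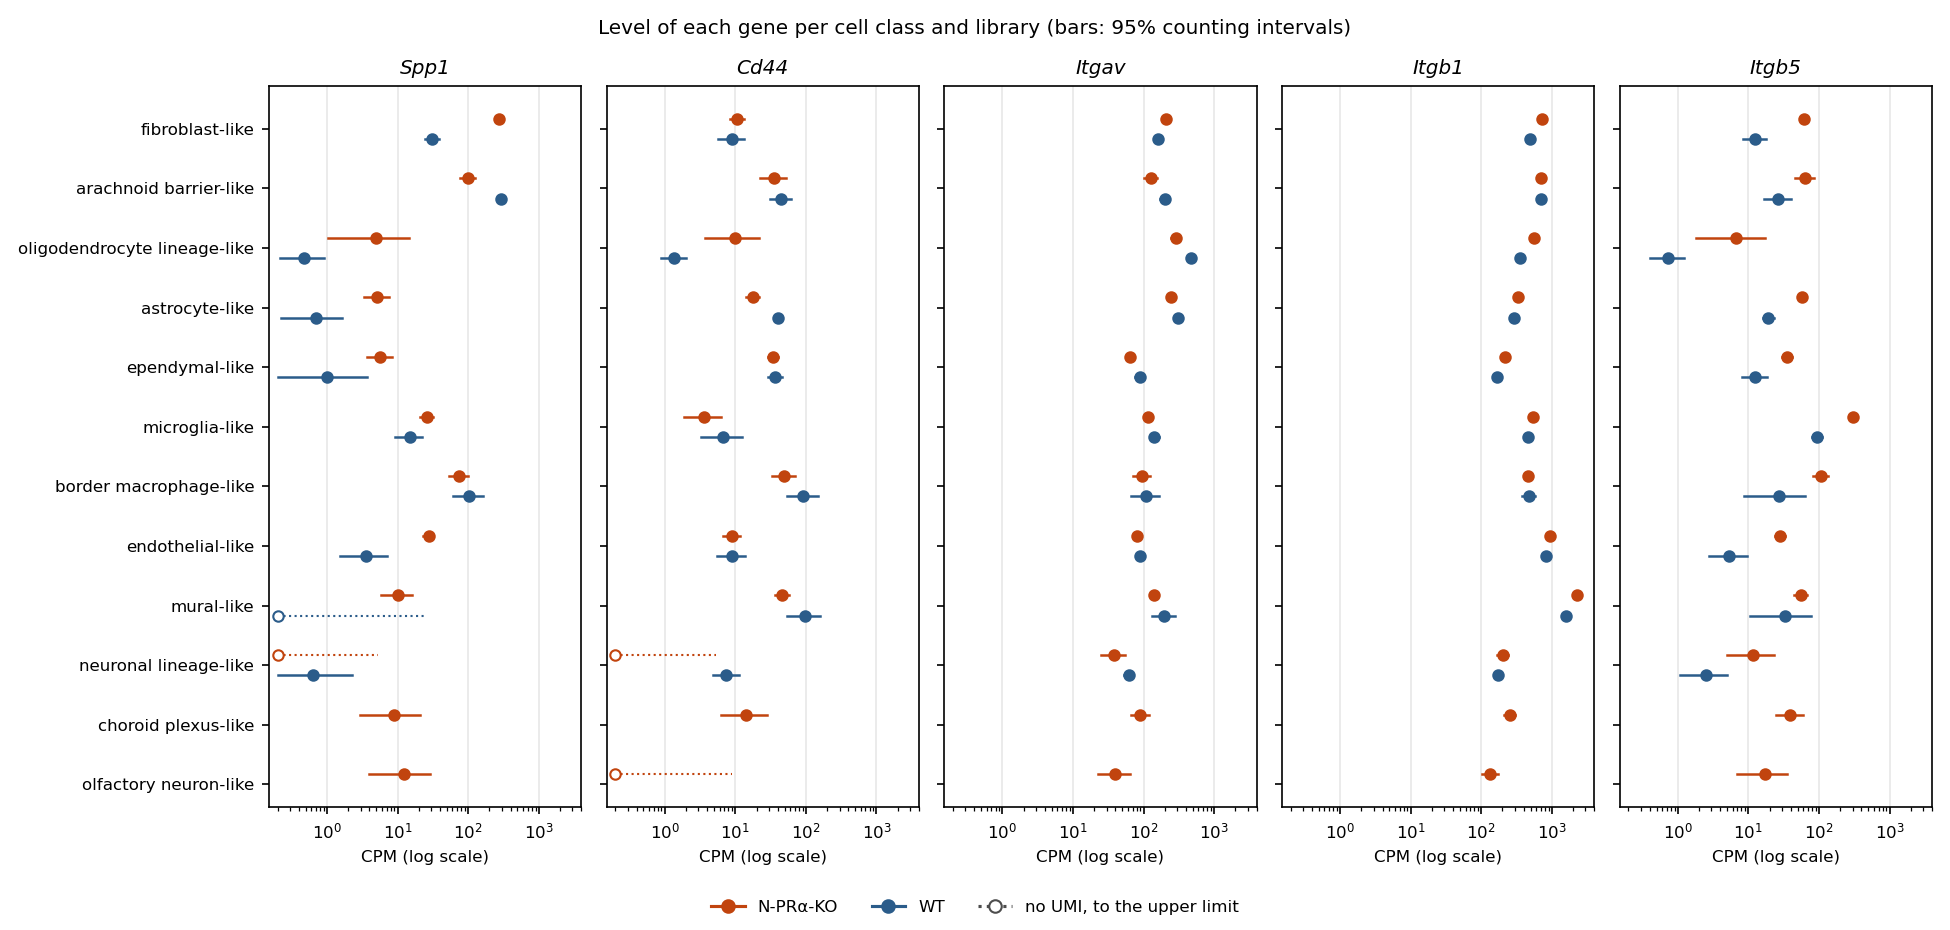
Level of each gene in CPM (horizontal, log axis) by cell class (vertical), with N-PRα-KO above WT in each class, dots for levels, lines for 95% counting intervals, and open circles with dotted lines up to the upper limit where no UMI was counted. Spp1 reaches 270.3 CPM in fibroblast-like N-PRα-KO cells and 290.3 CPM in WT arachnoid barrier-like cells, and Itgb5 is to the right in N-PRα-KO in all 10 shared classes.

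Border macrophages, the resident macrophages of meninges and perivascular spaces, ranked below arachnoid barrier-like cells in both libraries. Border macrophage-like cells had 74.0 CPM of Spp1 in the N-PRα-KO library (47 UMIs in 95 cells) and 102 CPM in the WT library (19 UMIs in 47 cells). These levels rest on single cells, since 37 of the 47 UMIs were in 1 N-PRα-KO cell and 13 of the 19 in 1 WT cell. Without cells of 5 or more UMIs the levels were 15.8 CPM in N-PRα-KO and 33.0 CPM in WT border macrophage-like cells. The log2 ratio of -0.47 (-1.27 to 0.38) included 0. It was 0.88 when doublet calls were not removed, where the class held 101 N-PRα-KO cells and 191 WT cells.

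Microglia, the macrophages of the brain tissue, gave a similar picture at a lower level. Microglia-like cells had 25.9 CPM in the N-PRα-KO library (86 UMIs, 52 of them in 1 of 577 cells) and 14.9 CPM in the WT library (22 UMIs in 509 cells), which gave a log2 ratio of 0.80 (0.11 to 1.54). Without cells of 5 or more UMIs the levels were 8.77 CPM in N-PRα-KO cells and 6.14 CPM in WT cells. Without the top 1% of cells in each library the log2 ratio was 1.88. That value rests on few WT UMIs, since only 9 WT microglia-like cells had any.

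Endothelial-like cells had 27.5 CPM of Spp1 in the N-PRα-KO library (153 UMIs, at most 12 in a cell) and 3.60 CPM in the WT library (8 UMIs, at most 2 in a cell). The log2 ratio was 2.93 (1.92 to 4.17), and it was 1.74 with cells thinned to 2000 UMIs and 1.2 with at least 1000 genes per cell. Its N-PRα-KO cells lay in cluster 7 and its WT cells in cluster 15. Summed fibroblast markers in it were 2133 CPM in N-PRα-KO and 1404 CPM in WT cells, with 10 of 10 detected in both, and their part in this ratio was not tested.

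The remaining classes had little Spp1. Astrocyte-like cells had 5.16 CPM in N-PRα-KO and 0.689 CPM in WT cells, and no astrocyte-like cell had more than 1 UMI. Ependymal-like cells had 5.73 CPM in N-PRα-KO and 1.01 CPM in WT cells, from 26 N-PRα-KO and 2 WT UMIs. After thinning, 0.893% of 448 N-PRα-KO and 0.373% of 268 WT ependymal-like cells had a UMI. Oligodendrocyte lineage-like cells had 3 UMIs in 66 N-PRα-KO cells and 9 UMIs in 5024 WT cells. Mural-like cells (pericytes and smooth muscle) had 9.98 CPM in 363 N-PRα-KO cells and no UMI in 51 WT cells, which allows up to 24.0 CPM. Neuronal lineage-like cells had no UMI in 170 N-PRα-KO cells, which allows up to 5.36 CPM, and 2 UMIs in 978 WT cells. Choroid plexus-like cells (8.98 CPM) and olfactory neuron-like cells (12.2 CPM) were named in the N-PRα-KO library only.

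In the N-PRα-KO order, fibroblast-like cells stood apart from the next class by intervals that did not overlap. Arachnoid barrier-like and border macrophage-like cells were not apart from each other, and both stood above endothelial-like cells. In the WT order, arachnoid barrier-like, border macrophage-like, fibroblast-like and microglia-like cells followed each other with each interval apart from the next. Below microglia-like cells no neighbours differed beyond their intervals in either library.

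The share of cells with Spp1 also differed between the libraries in fibroblast-like cells. At least 1 UMI was found in 49.1% of N-PRα-KO fibroblast-like cells (45.9 to 52.3, median depth 6217 UMIs) and 7.92% of WT fibroblast-like cells (5.72 to 10.6, median depth 4322). With each cell thinned to 2000 UMIs the share was 33.3% among 946 N-PRα-KO cells and 4.55% among 462 WT cells. Neuronal lineage-like cells, which should lack the gene, had it in 0 of 170 N-PRα-KO cells (exact upper limit 2.15%, median depth 3306) and in 0.204% of WT cells (median depth 2606). Deeper classes with at most 1 UMI in any cell had larger shares. Ependymal-like cells had it in 5.23% of N-PRα-KO (median depth 7300) and 0.576% of WT cells (4735). Astrocyte-like cells had it in 3.13% of N-PRα-KO (4721) and 0.273% of WT cells (3068). In arachnoid barrier-like cells 45% had a UMI in each library, and after thinning 19.3% among 57 N-PRα-KO cells and 29.7% among 111 WT cells had one. The 5 richest cells carried 41.2% of the UMIs among 60 N-PRα-KO cells and 41.7% among 120 WT cells, with up to 10 UMIs in an N-PRα-KO cell and 34 in a WT cell. Thinned, its log2 ratio was -0.88.

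**Figure D2:**
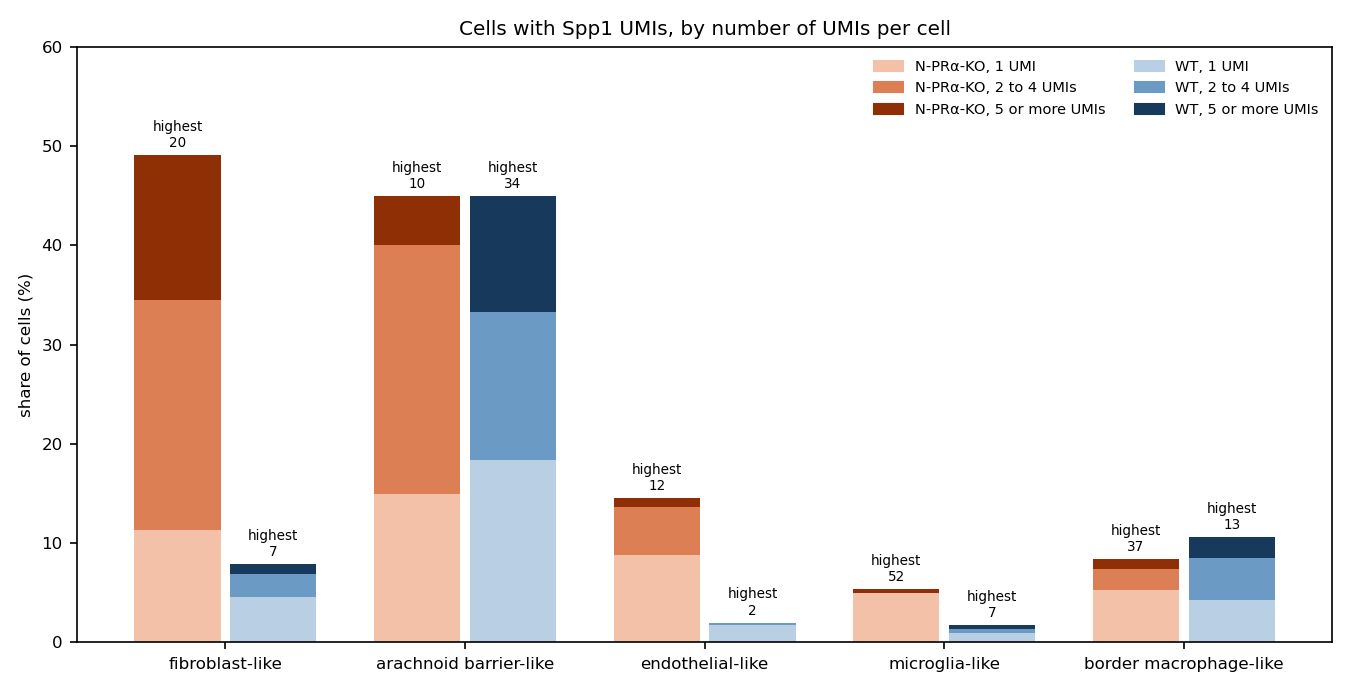
Share of cells (vertical, percent) with 1, 2 to 4, or 5 or more Spp1 UMIs, stacked from light to dark, in 5 classes, with the N-PRα-KO bar left of the WT bar and the highest UMI count of any cell above each bar. Among N-PRα-KO fibroblast-like cells 139 of 951 have 5 or more UMIs, against 5 of 505 WT fibroblast-like cells, while the microglia-like and border macrophage-like bars are low with single cells reaching 52 and 37 UMIs.

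Within the N-PRα-KO fibroblast-like class, Spp1 was not spread evenly. Cluster 5 (645 cells) was led by Col15a1, Itih5, Apod, Tgfbi and Col3a1, and held 1725 of the 1774 UMIs at 373 CPM (356 to 391), with a UMI in 68.2% of cells. Cluster 18 (306 cells) was led by Slc6a20a, Apod, Sidt1 and Aldh1a2 and had 25.2 CPM (18.7 to 33.3), with a UMI in 8.82% of cells. All WT fibroblast-like cells fell in cluster 9, led by Slc6a20a, Gjb2, Col1a1 and Aldh1a2. Its 31.2 CPM overlapped the interval of cluster 18, with which it shared the leading genes Slc6a20a, Aldh1a2, Slc22a6, Gjb2 and Slc7a11. Without cluster 5, a comparison chosen after seeing the data, the log2 ratio of Spp1 in fibroblast-like cells was -0.31, and without cluster 18 it was 3.58. Cluster 5 had no WT cell and held nearly all N-PRα-KO Spp1 UMIs of the class. Leaving it out was thus bound to lower the ratio and cannot show why the libraries differed.

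Clustering the fibroblast-like cells again separated them further. Sub-cluster 0 (472 N-PRα-KO cells, led by Fam210b, Kcnn3, Nostrin and Fam163a) had the highest Spp1 level, 421 CPM (399 to 444), with a UMI in 72.5% of its cells. It was rich in Col15a1 (4544 CPM), a basement membrane collagen gene listed here as perivascular, and poor in the connexin gene Gjb2 (14.6 CPM), listed as arachnoid. Sub-cluster 3 (139 N-PRα-KO cells, led by Stab1, Fetub and Ptgis) had 238 CPM of Spp1, and sub-cluster 5 (33 dividing N-PRα-KO cells, led by Mki67 and Ube2c) had 324 CPM. Sub-cluster 2 (290 N-PRα-KO cells, led by C4b, A2m and H19) had 17.0 CPM, with Gjb2 at 985 CPM and Col15a1 at 520.0 CPM.

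Among WT fibroblast-like cells the dividing ones held most of the Spp1. Sub-cluster 4 (129 WT cells, led by Cks2, Depdc1a and Ccna2) had 84.1 CPM (65.0 to 107) and 66 of the 80 WT UMIs, with a UMI in 24.0% of cells. Its Col15a1 level was 2853 CPM and its Gjb2 level 274 CPM. Sub-cluster 1 (369 WT cells, led by Ptgs2, Atf3 and Coch) had 3.997 CPM of Spp1 (1.61 to 8.23), with Gjb2 at 2555 CPM and Col15a1 at 465 CPM. Sub-cluster 6 was small, with 218 CPM in 17 N-PRα-KO cells and 241 CPM in 7 WT cells. Sub-cluster 0 (N-PRα-KO) and sub-cluster 4 (WT), both rich in Col15a1, thus had more Spp1 than sub-clusters 2 and 1 of the same libraries, where Gjb2 was higher. This split was noticed after the values were seen, and sub-clusters 3 and 5 were not placed in it. The Col15a1-rich WT sub-cluster was also the dividing one, so subtype and division cannot be told apart there. Sub-cluster 6 went against the split, with Gjb2 at 582 CPM in N-PRα-KO and 1204 CPM in WT cells. Its fibroblast-like name is uncertain. Summed fibroblast markers were the lowest of all sub-clusters, 6474 CPM in N-PRα-KO and 7812 CPM in WT cells. They were below its summed astrocyte markers (20650 CPM in N-PRα-KO, 18620 CPM in WT). Arachnoid barrier markers summed to 3664 CPM in N-PRα-KO and 5609 CPM in WT cells.

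Dividing cells could be set side by side after each library was centred on its own mean. Centring put 34 N-PRα-KO and 119 WT dividing cells in 1 sub-cluster, where Spp1 stood at 338 CPM in N-PRα-KO and 88.7 CPM in WT cells, which gave a log2 ratio of 1.93 (1.49 to 2.39). A further mixed sub-cluster, led by Mfap5, Eln and Ngfr, held 164 N-PRα-KO and 70 WT cells. It had 215 CPM of Spp1 in N-PRα-KO cells and 8.84 CPM in WT cells, the second resting on 3 UMIs. With Spp1 and the wider pathway genes left out before sub-clustering, the highest sub-cluster of at least 20 cells had 417 CPM in N-PRα-KO and 83.5 CPM in WT cells.

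Markers of other cell types differed in fibroblast-like cells too. Summed microglia markers (9 of 9 detected in both libraries) stood at 625 CPM in N-PRα-KO and 324 CPM in WT cells. Summed border macrophage markers stood at 113 CPM in N-PRα-KO cells (8 of 8 detected) and 37.0 CPM in WT cells, where Cd163 was at 0. Choroid plexus markers summed to 1781 CPM in N-PRα-KO cells and 219.5 CPM in WT cells, where Folr1, Kcne2 and Otx2 were at 0. Other sums were lower in N-PRα-KO cells, with endothelial markers at 1124 CPM in N-PRα-KO and 2712 CPM in WT cells, oligodendrocyte lineage markers at 957 CPM in N-PRα-KO and 1620.0 CPM in WT cells, and arachnoid barrier markers at 474 CPM in N-PRα-KO and 972 CPM in WT cells. The part of such RNA in the Spp1 ratio was not tested. Spp1 itself stood in the N-PRα-KO library at 74.0 CPM in border macrophage-like, 25.9 CPM in microglia-like and 8.98 CPM in choroid plexus-like cells. Within the N-PRα-KO class the sub-cluster with the most Spp1, sub-cluster 0, had 53.7 CPM of border macrophage markers, against 308 CPM in sub-cluster 3 and 134 CPM in sub-cluster 2. Other lists ran differently. Choroid plexus markers summed to 1872 CPM in sub-cluster 0, 1676 CPM in sub-cluster 3 and 1668 CPM in sub-cluster 2. Oligodendrocyte lineage markers summed to 1145, 937 and 705.5 CPM in the same order, and microglia markers to 616, 743.5 and 597 CPM.

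**Figure D3:**
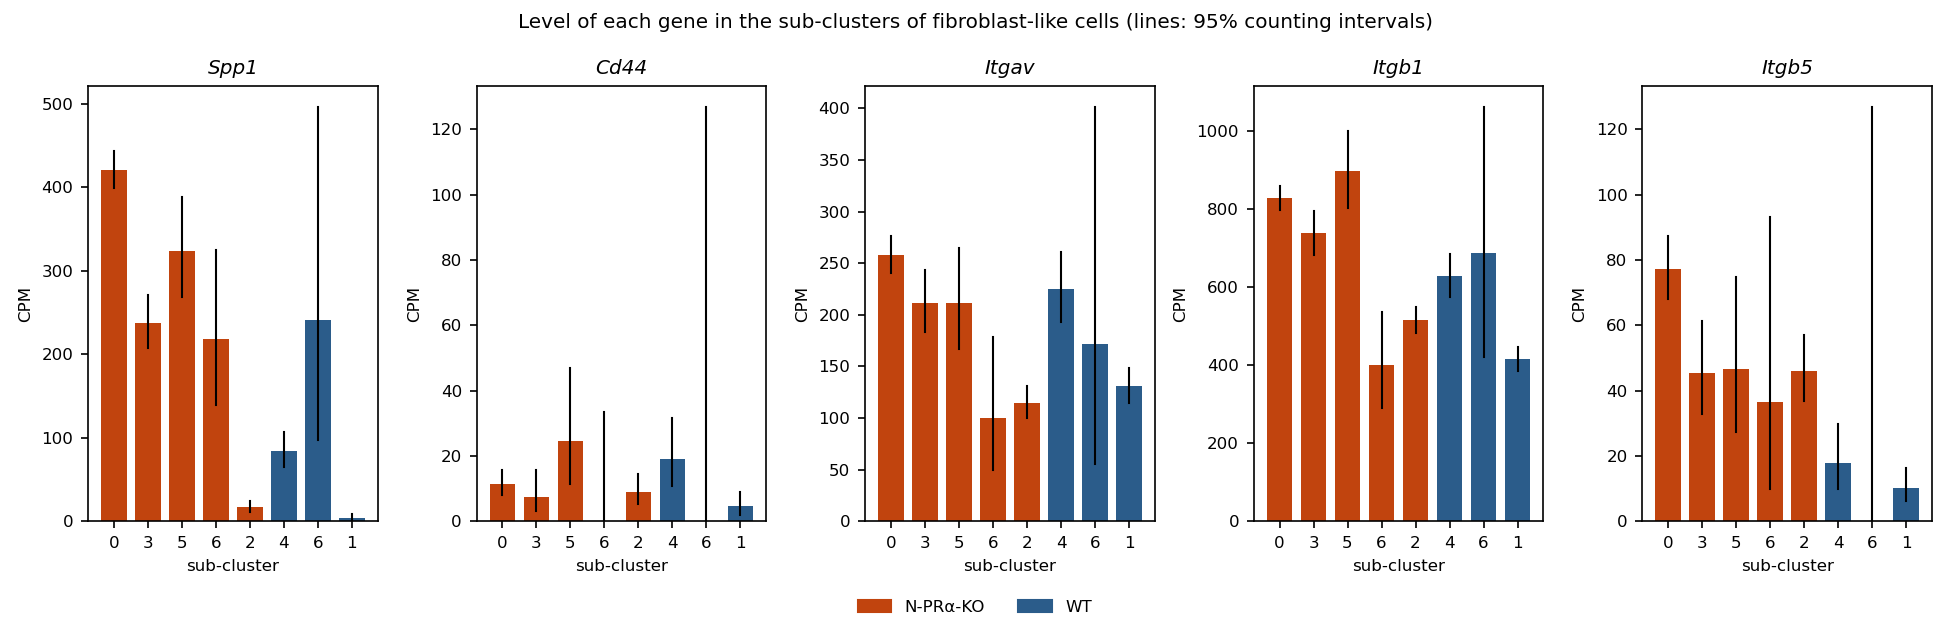
Level of each gene in CPM (vertical) in the sub-clusters of fibroblast-like cells (horizontal, numbered as in the text), with the 5 N-PRα-KO bars left of the 3 WT bars and lines for 95% counting intervals. Spp1 ranges from 17.0 to 421 CPM over the N-PRα-KO sub-clusters and from 3.997 to 241 CPM over the WT ones, while Itgav and Itgb1 vary less.

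Cd44, the hyaluronan receptor that also binds osteopontin, was not a fibroblast gene in these libraries. Fibroblast-like cells had 10.7 CPM in the N-PRα-KO library (70 UMIs) and 8.97 CPM in the WT library (23 UMIs), which gave a log2 ratio of 0.25 (-0.45 to 0.998). A UMI of it was seen in 5.47% of the N-PRα-KO fibroblast-like cells and in 4.16% of the WT ones (median depths 6217 and 4322 UMIs). Oligodendrocyte lineage-like cells had one in 4.55% of 66 N-PRα-KO cells (median depth 6335 UMIs) and 0.518% of 5024 WT cells (3326 UMIs), and neuronal lineage-like cells in 0 of 170 N-PRα-KO cells (3306 UMIs) and 2.15% of 978 WT cells (2606 UMIs). Neither Spp1-rich sub-cluster 0 (11.3 CPM) nor Spp1-poor sub-cluster 2 (9.01 CPM) stood out for it. The highest levels among the sub-clusters were in dividing cells, 24.7 CPM in N-PRα-KO sub-cluster 5 (9 UMIs) and 19.1 CPM in WT sub-cluster 4 (15 UMIs).

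The Cd44 levels were highest in border macrophage-like and mural-like cells. Border macrophage-like cells had 48.8 CPM in N-PRα-KO and 91.6 CPM in WT cells. The N-PRα-KO level there rests on few cells, with 31 UMIs in 13 of 95 cells and up to 10 in a cell. The WT level rests on 17 UMIs in 14 of 47 cells, with at most 3 in a cell. Mural-like cells had 46.0 CPM in N-PRα-KO and 97.7 CPM in WT cells. Arachnoid barrier-like cells followed with 35.2 CPM in N-PRα-KO and 44.4 CPM in WT cells, and ependymal-like cells with 33.9 CPM in N-PRα-KO and 36.7 CPM in WT cells. In the N-PRα-KO library these 4 classes did not differ from each other beyond their intervals. In mural-like cells the log2 ratio was -1.09 (-1.89 to -0.19) with 15 WT UMIs. In border macrophage-like cells it was -0.91 (-1.81 to 0.04), and 0.54 when doublet calls were not removed.

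Astrocyte-like cells held 15.8% of the Cd44 UMIs of the N-PRα-KO library and 53.0% of those of the WT library. Their level was 17.6 CPM in N-PRα-KO cells and 40.1 CPM in WT cells, which gave a log2 ratio of -1.19 (-1.56 to -0.83), and -0.90 with the GC trend removed. The class was made of different clusters in the 2 libraries. N-PRα-KO clusters 12 and 17 had 21.1 and 12.2 CPM, and WT clusters 3, 2 and 19 had 56.0, 11.1 and 40.4 CPM. Clusters 12 and 3, which share the leading genes Slc1a2, Grm3, Slc4a4 and Hapln1, thus lay apart, whereas clusters 17 and 2, which share Thbs4 and Cldn10, had overlapping intervals. With a mitochondrial limit of 10% the log2 ratio of the class turned to 0.52.

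Low Cd44 counts limit the other classes. Microglia-like cells had 3.61 CPM in N-PRα-KO and 6.77 CPM in WT cells, and endothelial-like cells 8.98 CPM in N-PRα-KO and 8.99 CPM in WT cells. Neuronal lineage-like cells had no UMI in the N-PRα-KO library, which allows up to 5.36 CPM, and 7.50 CPM in the WT library. Oligodendrocyte lineage-like cells had 10.1 CPM in the N-PRα-KO library, from 6 UMIs in 3 cells, and 1.37 CPM in the WT library.

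Itgav encodes the αv chain, which pairs with several β chains to bind Arg-Gly-Asp ligands. It was highest in oligodendrocyte lineage-like cells, at 286 CPM (245 to 333) in N-PRα-KO and 465 CPM (455 to 475) in WT cells, followed by astrocyte-like cells at 248 CPM in N-PRα-KO and 304 CPM in WT cells. The WT order separated both from the rest and from each other, while the N-PRα-KO intervals of the pair overlapped. Oligodendrocyte lineage-like cells, of which 66 were N-PRα-KO and 5024 were WT, held 3.98% of the N-PRα-KO Itgav UMIs and 70.55% of the WT ones. In the N-PRα-KO library fibroblast-like cells held the greatest share, 31.3%.

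In fibroblast-like cells Itgav stood at 205 CPM in N-PRα-KO and 160 CPM in WT cells, which gave a log2 ratio of 0.36 (0.20 to 0.52), and 0.71 with the GC trend removed. Its pattern over the clusters followed that of Spp1 at a smaller scale. Cluster 5 had 244 CPM, cluster 18 had 112 CPM and WT cluster 9 had 160 CPM, so that without cluster 5 the log2 ratio was -0.52. Among the sub-clusters the level was 258 CPM in N-PRα-KO sub-cluster 0, 114.5 CPM in N-PRα-KO sub-cluster 2, 225.5 CPM in WT sub-cluster 4 and 131 CPM in WT sub-cluster 1. Between the dividing cells of the centred sub-cluster its log2 ratio was -0.17 (-0.57 to 0.23).

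Outside fibroblast-like cells Itgav was lower in the N-PRα-KO library in each of the other 9 shared classes, by an interval below 0 in 6 of them. The log2 ratio was -0.70 (-0.93 to -0.48) in oligodendrocyte lineage-like, -0.67 (-1.06 to -0.28) in arachnoid barrier-like and -0.70 (-1.35 to -0.11) in neuronal lineage-like cells. These values were -0.25, -0.26 and -0.29 with the GC trend removed. The oligodendrocyte lineage-like class differed in make-up between the libraries. The myelin gene Mbp stood there at 8961 CPM in N-PRα-KO and 729.7 CPM in WT cells, and Pdgfra at 1931 CPM in N-PRα-KO and 4668 CPM in WT cells. The part of this in the ratio of that class was not tested. The Itgav ratio was -0.44 in ependymal-like, -0.29 in astrocyte-like and -0.28 in microglia-like cells. With the trend removed the last 3 turned to 0.03, 0.12 and 0.14, and the neuronal value turned to 0.16 with the libraries clustered apart. Thinned, the arachnoid barrier value was -1.50, and without thinning no class reached 2-fold. Mural-like cells had 139 CPM in N-PRα-KO and 195 CPM in WT cells, border macrophage-like cells 94.4 and endothelial-like cells 81.5 CPM in N-PRα-KO, against 108 and 89.0 CPM in WT.

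Itgb1 encodes the β1 chain, shared by most matrix-binding integrins. Mural-like cells had the highest level by far, 2283 CPM (2214 to 2354) among N-PRα-KO cells and 1563 CPM (1372 to 1774) among WT cells. Endothelial-like cells were second in both libraries, at 944 CPM in N-PRα-KO and 839 CPM in WT cells. Ependymal-like cells (218 CPM in N-PRα-KO, 168 CPM in WT) and neuronal lineage-like cells (200.5 CPM in N-PRα-KO, 172 CPM in WT) were the lowest classes found in both libraries.

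Differences in Itgb1 between the libraries were small and mostly in 1 direction. The log2 ratio was above 0 by its interval in 7 of the 10 shared classes, below 0 in none, and under 2-fold in all. With the lowest class subtracted, the ependymal-like value of 0.38 was 3.55, since ependymal-like cells were themselves the lowest WT class. The ratio was 0.65 (0.49 to 0.81) in oligodendrocyte lineage-like cells, a class that differed in Mbp and Pdgfra levels between the libraries. It was 0.58 (0.49 to 0.67) in fibroblast-like and 0.55 (0.36 to 0.74) in mural-like cells. In arachnoid barrier-like cells it was -0.04 (-0.22 to 0.14), with 694 CPM in N-PRα-KO and 712.5 CPM in WT cells. Fibroblast-like cells had 722 CPM in N-PRα-KO and 483 CPM in WT cells. Cluster 5 had 817 CPM, cluster 18 had 496 CPM and WT cluster 9 had 483 CPM, and the log2 ratio was 0.04 without cluster 5. Dividing cells had more than their neighbours in the WT library, 628 CPM in sub-cluster 4 and 415 CPM in sub-cluster 1, while N-PRα-KO sub-cluster 5 (898 CPM) and sub-cluster 0 (828 CPM) had overlapping intervals.

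Itgb5 encodes the β5 chain, which pairs with αv. It was highest in microglia-like cells, at 305 CPM (287 to 325) among N-PRα-KO cells and 93.5 CPM (78.5 to 110) among WT cells, and both stood apart from the next class. A UMI was found in 78.5% of 577 N-PRα-KO microglia-like cells (median depth 5605 UMIs) and 22.6% of 509 WT ones (2662 UMIs). Oligodendrocyte lineage-like cells had one in 6.06% of cells in N-PRα-KO (6335 UMIs) and 0.279% in WT (3326 UMIs). Microglia-like cells held 45.0% of the Itgb5 UMIs of the N-PRα-KO library and 32.9% of those of the WT library. Border macrophage-like cells came second in the N-PRα-KO library at 105 CPM, against 26.9 CPM (5 UMIs) in the WT library.

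The Itgb5 ratio was above 0 in all 10 shared classes, by its interval in 9 of them. In microglia-like cells the log2 ratio was 1.71 (1.45 to 1.98) and in fibroblast-like cells 2.30 (1.78 to 2.87), from 61.4 CPM in N-PRα-KO and 12.5 CPM in WT fibroblast-like cells. With the GC trend removed these values were 0.98 and 1.56, and over the 10 classes the trend-removed values ran from 0.17 to 2.35. Astrocyte-like cells had 58.5 CPM in N-PRα-KO and 19.3 CPM in WT cells, and arachnoid barrier-like cells 63.1 CPM in N-PRα-KO and 26.4 CPM in WT cells. Mural-like cells, the exception by interval, had 54.9 CPM in N-PRα-KO and 32.6 CPM in WT cells (5 UMIs), which gave a log2 ratio of 0.75 (-0.52 to 2.41).

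Endothelial-like cells had 28.0 CPM in N-PRα-KO and 5.39 CPM in WT cells, and ependymal-like cells 35.3 CPM in N-PRα-KO and 12.6 CPM in WT cells. Their log2 ratios of 2.38 and 1.49 turned to -0.14 and -0.09 with a mitochondrial limit of 10%, where 21 N-PRα-KO and 27 WT endothelial-like and 36 N-PRα-KO and 41 WT ependymal-like cells were left. In arachnoid barrier-like cells the log2 ratio of 1.26 was 0.22 in thinned cells, with counts under 3 taken as 3. The thinned share with a UMI was lower in N-PRα-KO, 3.51% of 57 cells, than in WT, 4.505% of 111 cells, so the direction is not settled there. Within fibroblast-like cells the higher N-PRα-KO level did not rest on 1 cluster, with 68.4 CPM in cluster 5, 44.8 CPM in cluster 18 and 12.5 CPM in WT cluster 9. In the dividing cells of the centred sub-cluster the log2 ratio was 1.51 (0.42 to 2.65), and in the Mfap5-led one 2.25 (0.82 to 4.17).

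**Figure D4:**
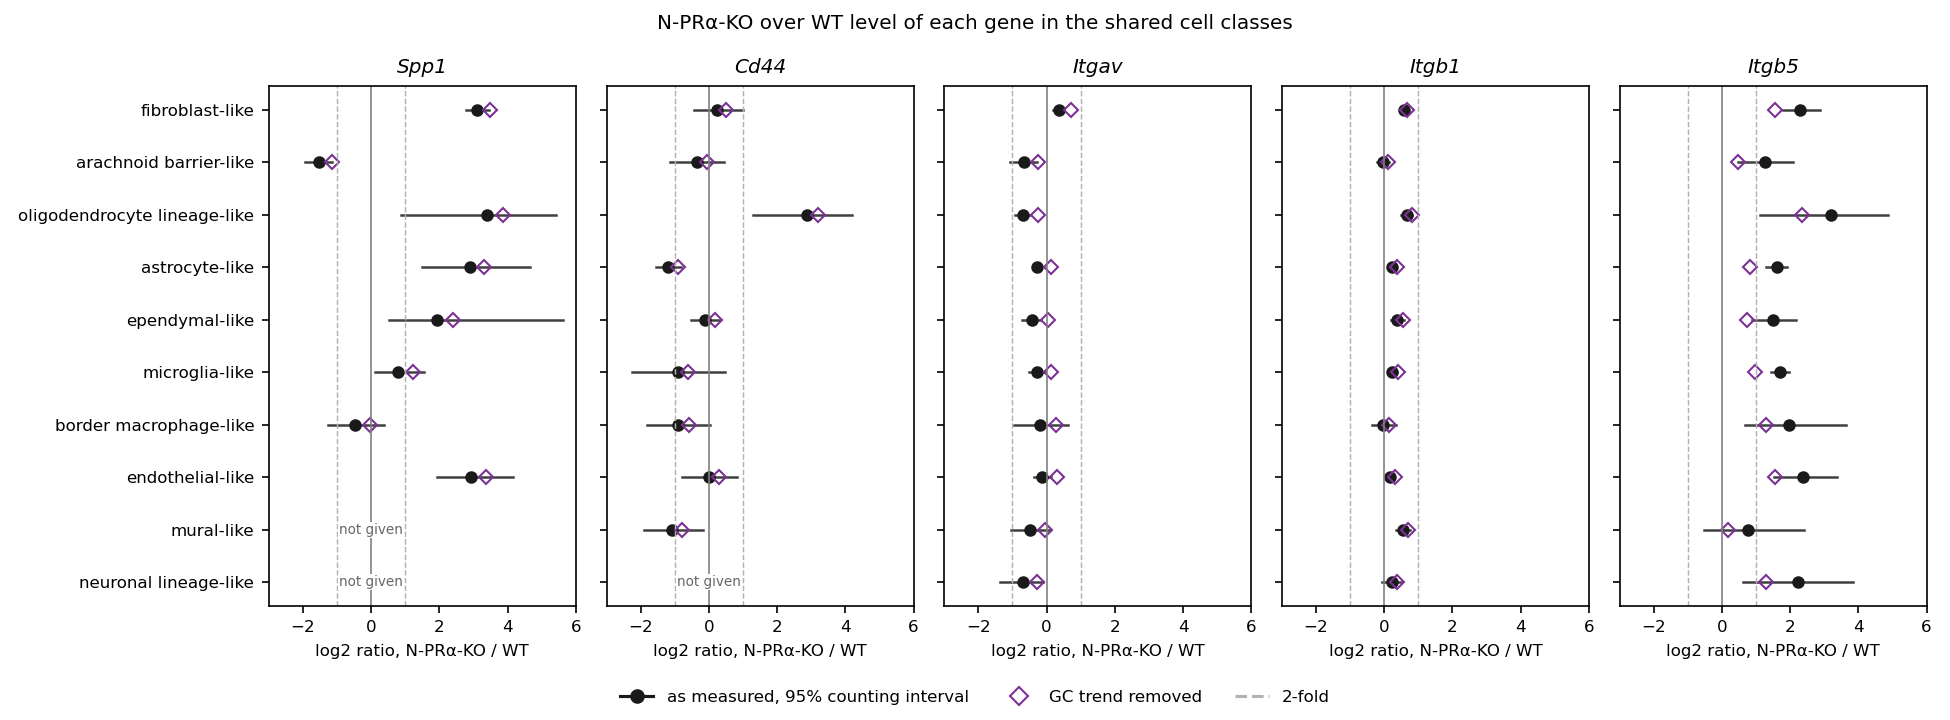
Log2 ratio of each gene, N-PRα-KO over WT (horizontal), in the 10 shared classes (vertical), as black dots with 95% counting intervals, with the ratio after removal of the GC trend as purple diamonds and 2-fold as dashed lines; "not given" marks a class with no UMI in 1 library. Spp1 lies at 3.12 in fibroblast-like and -1.54 in arachnoid barrier-like cells, Itgav and Itgb1 stay inside 2-fold, and the Itgb5 diamonds lie left of their dots.

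Counts past 2-fold outside fibroblast-like cells are given here with the share of all genes that reached 20 CPM and were past 2-fold the same way. In arachnoid barrier-like cells Itgb5 was higher in N-PRα-KO (17.4% of genes) and Spp1 lower (9.98%). In astrocyte-like cells Itgb5 was higher (16.1%) and Cd44 lower (5.67%). In endothelial-like cells Spp1 and Itgb5 were higher (17.2%) and none was lower (9.48%). Itgb5 alone was past 2-fold in ependymal-like (14.5% of genes higher, 6.04% lower), microglia-like (16.8% higher, 7.05% lower) and border macrophage-like cells (14.4% higher, 15.8% lower). Cd44 alone was past 2-fold in mural-like cells, where it was lower (11.5% higher, 13.4% lower). None of the 5 genes was both at 20 CPM and past 2-fold in oligodendrocyte lineage-like cells (17.5% higher, 13.2% lower) or neuronal lineage-like cells (21.5% higher, 14.6% lower). The contrast was known when the genes were chosen, so these counts are descriptions.

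Ligand and receptor chains were also looked for in the same cells. In sub-cluster 0, with cells thinned to 2000 UMIs, Itgav had a UMI in 42.6% of the 242 cells with Spp1 and in 35.96% of the 228 cells without it. The shares for Itgb1 were 79.8% with Spp1 and 72.8% without, for Itgb5 14.9% and 11.4%, and for Cd44 1.65% and 2.63%. The intervals of each pair overlapped, which does not show that the shares were equal. Cells of 1 library are not replicates, and the differences were not tested. In sub-cluster 3, with 39 cells with Spp1 and 99 without, the shares were 43.6% and 36.4% for Itgav and 87.2% and 72.7% for Itgb1. They were 10.3% and 11.1% for Itgb5, and 2.56% and 1.01% for Cd44. In sub-cluster 2 only 13 cells had Spp1, and the Itgav share was 15.4% with it and 22.5% without.

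Other integrin chains of osteopontin receptors differed from each other in fibroblast-like cells. Of 7 listed chains, 4 reached 20 CPM, of which 1 was at least 2-fold higher and 2 at least 2-fold lower in N-PRα-KO cells. Their median log2 ratio was -0.41, against -0.01 for all genes compared, of which 16.1% were at least 2-fold higher and 8.41% at least 2-fold lower. Itga8, which pairs with β1, stood at 233 CPM in N-PRα-KO and 85.75 CPM in WT cells. Itga9, another β1 partner, stood at 8.23 CPM in N-PRα-KO and 25.7 CPM in WT cells. Itgb8, an αv partner known for activating TGF-β, stood at 6.55 CPM in N-PRα-KO and 39.4 CPM in WT cells. Itgb8 had a log2 ratio below 0 in each of the 10 shared classes, from -2.95 in border macrophage-like to -0.87 in astrocyte-like cells, and from -2.32 to -0.29 with the GC trend removed. Itga5, the fibronectin receptor chain, had 67.0 CPM in N-PRα-KO and 37.8 CPM in WT cells, and its log2 ratio of 0.83 turned to -0.29 with the GC trend removed.

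Enzymes that modify osteopontin were sparse. Of 9 listed, 2 reached 20 CPM in fibroblast-like cells. Fam20c, the kinase that phosphorylates secreted proteins including osteopontin, stood at 39.3 CPM in N-PRα-KO and 9.36 CPM in WT cells, which gave a log2 ratio of 2.07 (1.47 to 2.74), and 1.33 with the GC trend removed. In arachnoid barrier-like cells it stood at 33.7 CPM in N-PRα-KO and 3.60 CPM (3 UMIs) in WT cells. Tgm2, a transglutaminase that cross-links osteopontin, stood at 36.3 CPM in N-PRα-KO and 44.1 CPM in WT fibroblast-like cells, which gave a log2 ratio of -0.28 (-0.61 to 0.06), and -1.14 with the GC trend removed. Of 4 listed relatives of Spp1 (Ibsp, Dmp1, Dspp and Mepe), 3 were matched in the tables, and none of these reached 20 CPM in fibroblast-like cells. In mural-like cells Dmp1 had 21.1 CPM in N-PRα-KO cells, from 38 UMIs, and 1 UMI in WT cells.

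Hyaluronan genes and partners of CD44 showed no common direction in fibroblast-like cells. Of 14 listed, 8 reached 20 CPM, none was at least 2-fold higher and 2 were at least 2-fold lower. Of all genes compared in this class, 16.1% were at least 2-fold higher and 8.41% at least 2-fold lower. Hmmr, a hyaluronan receptor gene expressed in dividing cells, stood at 16.5 CPM in N-PRα-KO and 62.0 CPM in WT cells, and Hbegf at 8.84 CPM in N-PRα-KO and 21.4 CPM in WT cells. Tmem2, a cell-surface hyaluronidase gene, stood at 174 CPM in N-PRα-KO and 92.4 CPM in WT cells. Mmp14, a membrane protease that cleaves CD44, stood at 432 CPM in N-PRα-KO and 410.4 CPM in WT cells. The others were Cemip, Ezr, Rdx and Msn, with log2 ratios between -0.51 and 0.56. Ezr turned to -0.24 and Mmp14 to -0.44 with the GC trend removed.

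Other ligands of αv and β1 integrins were more abundant and differed unequally. Of 11 listed, 9 reached 20 CPM in fibroblast-like cells, with a median log2 ratio of 0.09. At least 2-fold higher were 3 of them (16.1% of all genes compared), and at least 2-fold lower was 1 (8.41%). The higher ones were Mfge8 (46.8 CPM in N-PRα-KO, 14.0 CPM in WT), which bridges αv integrins to dying cells, and the laminin chain genes Lama1 (508 CPM in N-PRα-KO, 172 CPM in WT) and Lamc1 (1418 CPM in N-PRα-KO, 485 CPM in WT). With the GC trend removed the log2 ratios of Mfge8 and Lama1 were 0.49 and 0.55, and that of Lamc1 was 1.61. The lower one was Cyr61, a matricellular ligand, at 251 CPM in N-PRα-KO and 613 CPM in WT cells. Vtn, the vitronectin gene, stood at 1920 CPM in N-PRα-KO and 2659 CPM in WT cells, Fn1 at 92.2 CPM in N-PRα-KO and 137 CPM in WT cells, and Nid1 at 1633 CPM in N-PRα-KO and 2656 CPM in WT cells. The log2 ratio of Vtn was -0.47, and -1.50 with the GC trend removed. Fbn1 and Tnc had log2 ratios of 0.39 and 0.09.

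Microglia-like cells, the class with the most Itgb5, listed 7 of these ligands at 20 CPM or more in the N-PRα-KO library. All were at least 2-fold higher there, as were 16.8% of all genes compared in that class. Only Tgfb1 also reached 20 CPM in the WT library (23.7 CPM). The others passed through their N-PRα-KO level alone, so nothing is read from the count. Among the 7, Vtn stood at 103 CPM in N-PRα-KO and 11.5 CPM in WT cells, and Lamc1 at 80.05 CPM in N-PRα-KO and 8.80 CPM in WT cells. Both are genes of fibroblasts and vessel walls, and in the N-PRα-KO library each was far higher in fibroblast-like cells. Summed mural markers in microglia-like cells were 487.5 CPM in N-PRα-KO cells (10 of 10 detected) and 56.2 CPM in WT cells, where Tagln and Higd1b were at 0, and summed fibroblast markers were 694 CPM in N-PRα-KO cells (10 of 10 detected) and 302 CPM in WT cells, where Igf2 was at 0. The part of such RNA in these ratios was not tested. The log2 ratios of 1.12 for Mfge8 and 1.11 for Tgfb1 were -0.086 and 0.60 with the GC trend removed.

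Integrin adaptors, which link β chains to actin, had log2 ratios above 0 in fibroblast-like cells, most of them under 2-fold. Of 9 listed, 7 reached 20 CPM, with a median log2 ratio of 0.83. Of these, 1 was at least 2-fold higher (16.1% of all genes compared) and none at least 2-fold lower (8.41%). Ilk, the integrin-linked kinase gene, stood at 165 CPM in N-PRα-KO and 64.3 CPM in WT cells. It was at least 2-fold higher in all 10 shared classes, with log2 ratios from 1.03 to 2.20, and from 0.32 to 1.32 with the GC trend removed. Over these classes, 11.5% (mural-like) to 21.5% (neuronal lineage-like) of all genes compared were at least 2-fold higher. The kindlin gene Fermt2 (log2 ratio 0.83), Ptk2 (0.91), Pxn (0.87), Tln1 (0.56), Tln2 (0.58) and Vcl (0.10) were all under 2-fold. With the GC trend removed Tln1 turned to -0.67 and Pxn to -0.06.

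Genes with the most similar pattern were ranked by Pearson's r of log2(CPM + 10) over 18 points, which are the 9 classes of 50 or more cells per library, taken once in each library and centred within it. The points share 2 libraries and their depth, so r is descriptive. Among 8200 candidates the nearest to Spp1 were Tgfbi (0.97), Nrk (0.93), Mrc2 (0.90), Crispld1 (0.89) and Itih2 (0.88). For Cd44 they were Crim1 (0.90), Ogdh, Mamdc2, Acadvl and Plce1, and for Itgav Sel1l (0.88), Tmx3, Ankrd13c, Gng12 and Tmem100. For Itgb1 they were Esyt1 (0.92), Myo1c, Actn4, Lpp and Map2k3, among them genes of the actin skeleton and its anchors (Myo1c, Actn4 and Lpp). Itgb5 was nearest to Ctsz (0.91), a lysosomal cathepsin gene, followed by Asph, Vwa5a, Ski and the cathepsin gene Ctsd.

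Barcodes over the mitochondrial limit were not part of the classes, and their levels are given here as the values outside the limit. There were 4126 such N-PRα-KO barcodes and 1329 WT ones, and their levels are per 1000000 non-mitochondrial UMIs. Spp1 stood at 35.3 CPM (30.3 to 41.0) in N-PRα-KO and 66.7 CPM (55.5 to 79.4) in WT barcodes over the limit, whereas the cells used had 86.1 CPM in N-PRα-KO and 11.8 CPM in WT cells. Itgav stood at 178 CPM in N-PRα-KO and 273 CPM in WT barcodes over the limit, and Itgb1 at 455 CPM in N-PRα-KO and 449.6 CPM in WT ones. Cd44 stood at 18.4 CPM in N-PRα-KO and 29.9 CPM in WT barcodes over the limit, against 20.3 CPM in N-PRα-KO and 16.2 CPM in WT cells used. The direction between libraries in the excluded barcodes was thus opposite to that in the cells used for Spp1 and Cd44 and the same for Itgav. Cell classes were not assigned to these barcodes.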

How the data were processed

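The deposited files hold raw UMI counts of each gene in each cell, which came from the BD Rhapsody pipeline, per the file headers, in version 1.10 (N-PRα-KO) and 1.10.1 (WT), on GRCm38 with GENCODE M19. The submitters' processing notes name GRCm38 and mm10, and the aligner was not given in the sources used here. The libraries held 41982217 UMIs in 8336 barcodes (N-PRα-KO) and 43459947 UMIs in 11438 barcodes (WT), of which 4196 and 10069 passed the filter.

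The 5 genes, the marker lists and the wider lists were chosen with earlier results of these data known. Scrublet (scanpy 1.11.5) marked 10 cells (0.238%) of the N-PRα-KO library and 174 (1.73%) of the WT library as doublets, which were removed. The N-PRα-KO share is low for that many cells, so doublets may remain there, and doublet removal was dropped as an alternative. Cells were scaled to 10000 counts on a log scale, and 2000 variable genes, 30 components and 20 neighbours gave 31 Leiden clusters (leidenalg 0.10.2, resolution 1) without integration. A cluster was named when its mean marker score reached 0.5 and led the next by 0.5, at least 3 markers were detected in at least 10% of cells, and its top 10 genes did not favour another class. The rule on detected markers alone was applied again per library within clusters, and left 132 WT cells of cluster 22 unnamed. Most cells of the fibroblast-like (clusters 5 and 18 against 9), endothelial-like (7 against 15), microglia-like (6 against 8), ependymal-like (10 against 16), astrocyte-like (12 and 17 against 2 and 3), oligodendrocyte lineage-like (27 against 0, 1 and 4) and neuronal lineage-like cells (26 against 11 and 14) lay in different clusters in the N-PRα-KO and WT libraries. Sub-clusters of the fibroblast-like class used 1000 variable genes, 20 components and resolution 0.5.

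No test between genotypes was made, as each genotype had 1 library. Levels are sums over the cells of a class in a library. Levels carry exact Poisson, shares Clopper-Pearson and log2 ratios exact conditional 95% intervals (scipy 1.17.1), which cover counting error only. Counts of 1 or 2 were set to 3 in ratios, and no ratio is given against 0. The code for ratios and their intervals was checked on simulated counts. The GC trend was a lowess curve (statsmodels 0.14.6, fraction 0.3) over genes at 20 CPM or more. All 5 genes are reported. Listed genes are named where they reached 20 CPM in the class described, and 5 nearest patterns per gene were named among genes at 50 CPM or more at 1 point or more. Predicted, ribosomal, mitochondrial and haemoglobin genes were left out of the nearest patterns. Positions and the Spp1 sequence come from GENCODE M21 on GRCm38. Protein and promoter sequences were not used here. Alternatives are given under the dependence on processing.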

Additional observations from a re-analysis of the deposited data

Results flagged for a closer look

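The log2 ratio of Spp1 ran in opposite directions in neighbouring meningeal classes, 3.12 in fibroblast-like and -1.54 in arachnoid barrier-like cells. Without cells of 5 or more UMIs the arachnoid barrier-like levels were 74.5 CPM in N-PRα-KO and 104.5 CPM in WT cells. Summed fibroblast markers in that class were 11260 CPM in N-PRα-KO and 19160 CPM in WT cells, choroid plexus markers 1689 CPM in N-PRα-KO and 162 CPM in WT cells, and their part in the ratio was not tested. The difference of 4.66 was not tested, since each class has 1 library per genotype.

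Itgav had a log2 ratio of 0.36 in fibroblast-like cells and -0.70 in neuronal lineage-like cells, a difference of 1.06 that was not tested either. Both values turn with a setting, to -0.52 without cluster 5 in fibroblast-like cells and to 0.16 with the libraries clustered apart in neuronal lineage-like cells.

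Itgb5 was also found in barcodes over the mitochondrial limit, which no comparison of cell classes used. It stood at 64.1 CPM of non-mitochondrial UMIs (57.2 to 71.6) in N-PRα-KO barcodes and 23.5 CPM (17.1 to 31.5) in WT barcodes, higher in the N-PRα-KO library as in the cells used (87.9 CPM in N-PRα-KO, 12.4 CPM in WT).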

How the results depend on the processing

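No paired analysis was possible because there was 1 library per genotype, and leaving out a replicate was not possible for the same reason. Values are log2 ratios of N-PRα-KO over WT unless a unit is given, and the cause of each change was not tested unless it is given. In fibroblast-like cells Spp1 (3.12) was 2.59 with a mitochondrial limit of 50%, 2.78 with classes from each cell's own markers, 3.69 without the top 1% of cells and 3.47 with the GC trend removed. Itgav (0.36) was 0.69 in thinned cells, 0.71 with the GC trend removed and 0.76 with the lowest class subtracted. Itgb1 (0.58) was 0.47, 0.68 and 0.72 under the same 3 settings, and Itgb5 (2.30) was 1.56 with the GC trend removed. Without N-PRα-KO cluster 5, an alternative added after seeing the data, Spp1 was -0.31, Itgav -0.52 and Itgb1 0.038, and without cluster 18, also added, they were 3.58, 0.61 and 0.76. Cd44 in fibroblast-like cells ranged from -0.22 to 0.79. The highest N-PRα-KO sub-cluster had 508 CPM of Spp1 at sub-cluster resolution 1, the lowest N-PRα-KO one 9.002 CPM after centring, and the lowest WT one 0 CPM (82 cells) at resolution 1. In other classes 11 values changed direction among ratios whose interval did not include 0. With a mitochondrial limit of 10% these were Cd44 in astrocyte-like cells (0.52), Itgav (0.23) and Itgb5 (-0.095) in ependymal-like cells and Itgb5 in endothelial-like cells (-0.14). Itgav in neuronal lineage-like cells was 0.16 with the libraries clustered apart and 0.23 at resolution 2. Spp1 in ependymal-like cells was -0.33 in thinned cells because the 1 WT UMI left was taken as 3, while the thinned shares were 0.893% in N-PRα-KO and 0.373% in WT cells. With the GC trend removed Itgav was 0.12 in astrocyte-like, 0.032 in ependymal-like and 0.14 in microglia-like cells, and in ependymal-like cells 0.040 with the lowest class subtracted. Ratios whose interval included 0 also changed sign, among them Spp1 (0.88) and Cd44 (0.54) in border macrophage-like cells without doublet removal, where 191 WT cells held that name against 47 with it. Itgav in endothelial-like cells was 0.33 in thinned cells, 0.31 with the GC trend removed and 0.67 with the lowest class subtracted, and Itgb1 in neuronal lineage-like cells was -0.095 with the lowest class subtracted. That setting took Itgb1 in ependymal-like cells, themselves the lowest WT class, to 3.55. Apart from the 11 values, 46 outside fibroblast-like cells left their interval and 489 did not. With the 10% limit no cluster was named fibroblast-like, arachnoid barrier-like or mural-like, so those classes have no value there. A floor of 3 counts stood highest in WT mural-like (51 cells, 19.5 CPM) and WT border macrophage-like cells (47 cells, 16.2 CPM).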
